A study of Mus musculus with 9 samples.

Results

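The chitinase and chitinase-like genes of the mouse were followed in ear skin during inflammation driven by interleukin 23 (IL-23). Chit1, Chia1, Chil1, Chil3 and Chil4 were chosen by gene name, with their counts in these libraries already known, and make up 5 of the 54838 genes in the deposited count tables. Differences between groups in these 5 genes are therefore given as a description, with no test. Counts were recorded for 4 of the 5, and 3 (Chil1, Chil4 and Chit1) passed the filter on low counts. Chil4 passed it through the wild-type IL-23 group alone, where it was high.

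Chitin is a polymer of N-acetylglucosamine made by fungi, insects and crustaceans but not by mammals. Mammals nevertheless carry genes of the glycoside hydrolase 18 family. Some encode chitinases that cut the polymer, and others encode secreted chitinase-like lectins that lost catalysis and are known as markers of macrophage activation, neutrophils, type 2 immunity and tissue remodelling. Chit1 encodes chitotriosidase, an enzyme known from activated macrophages, and Chia1 encodes acidic mammalian chitinase, known from stomach and lung. Chil1 encodes BRP-39, the mouse counterpart of human YKL-40, a serum marker of inflammation. Chil3 and Chil4 encode Ym1 and Ym2, rodent lectins known from alternatively activated macrophages and from allergic airways.

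RNA from ears of C57BL/6 mice aged 10 weeks was read by 3' tag sequencing, in which each transcript is counted near its 3' end, in 9 libraries. Mdl-1-/- mice with 15 µg of IL-23 minicircle DNA (3 libraries), wild-type mice with the same DNA (3 libraries) and wild-type mice with 15 µg of minicircle DNA for green fluorescent protein (GFP; 3 libraries) were compared. Minicircles are DNA rings stripped of plasmid backbone, given to all groups by hydrodynamic injection into the tail vein. Clec5a encodes MDL-1, a receptor on the surface of myeloid cells. Below, knockout and wild-type stand for the ears, libraries or groups that had IL-23 DNA, and GFP for the wild-type group that had GFP DNA. No Mdl-1-/- libraries with GFP DNA are part of the series as analysed here, so a genotype difference present before IL-23 cannot be told apart from one that arises under IL-23. The labels do not say that the libraries of a group came from separate animals, so errors and p-values measure the spread between libraries, which may be technical.

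Library totals ran from 3776188 to 5605713 counts, and the shallowest was wild-type library 3. Levels are given as CPM, counts scaled to the library size after correction by the trimmed mean of M-values (TMM). A count of 0 allows up to 0.464 CPM in GFP library 3 and up to 0.992 CPM in wild-type library 3, the ends of the range, taking 3 counts as the limit. Such limits cover counting error only. Clec5a had 10, 13 and 5 counts in knockout libraries, against 17, 21 and 11 in wild-type libraries and 2, 7 and 10 in GFP libraries. It rose 3.73-fold in wild-type against GFP ears (edgeR adjusted p = 0.00554); the log2 difference between knockout and wild type was -0.92 (SE 0.47, adjusted p = 0.185). The deleted part of the gene is not named in the labels, so a 3' tag does not check the genotype, and the groups are named here as labelled. Of 10 keratinocyte markers all 10 passed the filter, and their summed level was 25110 to 29890 CPM in knockout, 23320 to 28190 CPM in wild-type and 11410 to 15190 CPM in GFP libraries. In bulk tissue, fewer cells of a type and less RNA per cell cannot be told apart.

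The 5 genes lie in a pair of clusters in the GENCODE M21 annotation of GRCm38. Chit1 (ENSMUSG00000026450, 134111242 to 134151540, plus strand) and Chil1 (ENSMUSG00000064246, 134182176 to 134190181, plus strand) are neighbours on chromosome 1, 30.6 kb apart with no protein-coding gene between them. Chia1 (ENSMUSG00000062778, 106113229 to 106132120, plus strand), Chil3 (ENSMUSG00000040809, 106147554 to 106167564, minus strand) and Chil4 (ENSMUSG00000063779, 106201490 to 106219507, minus strand) follow each other on chromosome 3. Chia1 and Chil3 are 15.4 kb apart, and Chil3 and Chil4 33.9 kb. No other annotated gene overlaps any of the 5 on either strand.

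Coding sequence separates the enzymes from the lectins at the catalytic site. The stretch below is the part of each coding sequence that holds the chitinase signature, read from GENCODE M21 transcripts in the sense direction. It was found by its motif in Chit1 and placed in the other genes by alignment. Capitals mark the last codon, which in the enzymes is the codon of the catalytic glutamate (GAG or GAA).
Chit1: gatggccttgaccttgactggGAG
Chia1: gatggactggacctggactggGAA
Chil1: gatgggctggatctcgcctggCTC
Chil3: gatggcctcaacctggactggCAG
Chil4: gatggcctcaacctggactggCAG
The codon is CTC in Chil1 and CAG in Chil3 and Chil4, neither of which encodes glutamate. Chil3 and Chil4 have the same letters over this stretch. Their coding sequences matched at 95.3% of 1197 aligned bases, while those of the neighbours Chit1 and Chil1 matched at 68.3% of 1116.

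The enzyme gene Chit1 was higher in both IL-23 groups than in the GFP group, at nearly the same level in knockout and wild-type ears. Its counts were 524, 504 and 402 in knockout libraries, 492, 448 and 258 in wild-type libraries and 143, 155 and 175 in GFP libraries. On the TMM scale this is 109.6 ± 11.5, 98.7 ± 13.7 and 26.8 ± 1.80 CPM in the same order of groups (SD, n = 3 each). The IL-23 groups overlapped each other, and both lay wholly above the GFP group. The log2 fold change was 1.88 (SE 0.15, 3.69-fold) for wild-type against GFP and 2.03 (SE 0.15, 4.09-fold) for knockout against GFP. These comparisons share the GFP libraries. Between knockout and wild type the log2 difference was 0.15 with an SE of 0.15, about the size of its error. Chit1 varied little inside each group, with the highest library at 1.22 times the lowest in knockout, 1.32 times in wild-type and 1.14 times in GFP.

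The other enzyme gene, Chia1, had 0 counts in all 9 libraries. With 3 counts as the limit, a count of 0 in a single library allows up to 0.464 to 0.992 CPM, depending on the library. A limit over all 9 libraries together would be lower and was not computed.

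Chil1 showed the largest count of the 5 genes and a graded pattern. It had 2936, 4383 and 3081 counts in knockout libraries, 6824, 9619 and 6981 in wild-type libraries and 389, 414 and 104 in GFP libraries. The scaled level was 799 ± 181 CPM in knockout, 1993 ± 385 CPM in wild-type and 53.3 ± 32.5 CPM in GFP ears (SD, n = 3 each). All 3 groups were separate, with the knockout libraries (657 to 1002 CPM) between the others (1564 to 2308 CPM and 16.1 to 76.0 CPM). Wild-type ears stood 37.5-fold above GFP ears (log2 fold change 5.23, SE 0.61), and knockout ears 15.1-fold above GFP ears (3.91, SE 0.58). Knockout ears were 2.49-fold below wild-type ears (log2 fold change -1.32, SE 0.51). GFP library 3 was low, at 16.1 CPM against 67.7 and 76.0 CPM in GFP libraries 1 and 2. Without that library the log2 fold change was 4.79 for wild-type and 3.49 for knockout, each against GFP.

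Chil4 was found only in libraries with IL-23 DNA, and was far lower in knockout than in wild-type ears. Its counts were 11, 14 and 3 in knockout libraries, 38, 98 and 267 in wild-type libraries and 0, 0 and 0 in GFP libraries. The level averaged 2.13 ± 1.28 CPM in knockout and 39.5 ± 42.7 CPM in wild-type ears (SD, n = 3 each), and the groups did not overlap. Against 3 counts over the GFP group, Chil4 was at least 198-fold higher in wild-type ears and at least 12.7-fold higher in knockout ears. Knockout ears were 17.7-fold below wild-type ears (log2 fold change -4.15, SE 1.24). The wild-type libraries differed widely, from 8.71 CPM in library 1 and 21.5 CPM in library 2 to 88.3 CPM in library 3, a range of 10.1 times. Library 3 decided much of the size. Without it knockout ears were 6.95-fold below wild type (log2 fold change -2.80), and the bound for wild-type against GFP fell to 89.6-fold. That bound was 126-fold without GFP library 3, and for knockout against GFP the bound without it was 8.02-fold, since fewer GFP counts then stand behind the limit.

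**Figure D1:**
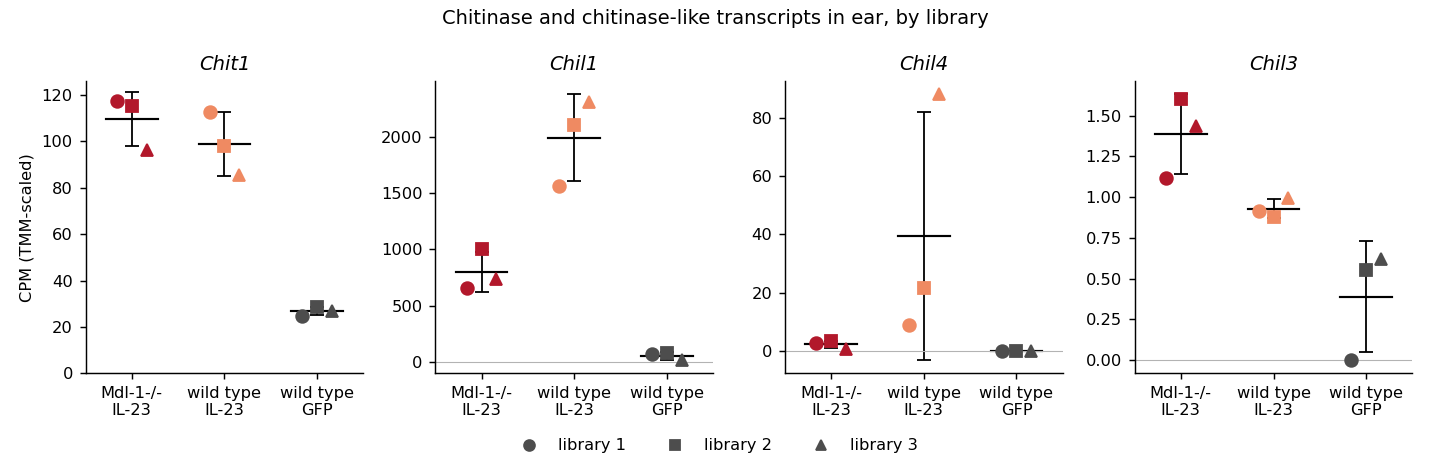
Level of each gene in TMM-scaled CPM on linear axes (one axis per gene) in the 3 libraries of each group; horizontal lines are means and bars are SD over 3 libraries. Chit1 is alike in both IL-23 groups, Chil1 is intermediate in knockout ears, and Chil4 reaches 88.3 CPM in 1 wild-type library and is at 0 in the GFP group.

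Chil3, nearly a copy of Chil4, stayed at the edge of detection. It had 5, 7 and 6 counts in knockout libraries, 4, 4 and 3 in wild-type libraries and 0, 3 and 4 in GFP libraries. Pooled over the group, this is a ratio of 3.49 for knockout against GFP (exact 95% interval 1.39 to 9.88) and of 2.32 for wild-type against GFP (0.822 to 7.06). Knockout against wild type gave 1.5 (0.672 to 3.52). In CPM the knockout, wild-type and GFP groups did not overlap, at 1.12 to 1.60, 0.876 to 0.992 and 0 to 0.619. In raw counts wild-type libraries (4, 4 and 3) did overlap GFP libraries (0, 3 and 4), so their separation in CPM came with the scaling. The 95% intervals cover counting error only, and the gene did not pass the filter.

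Whether reads could be confused between Chil3 and Chil4 bears on both results. Over the last 300 bases of their transcripts, where 3' tags fall, the genes matched at 90.0% of 299 aligned bases (30 differed), and the longest stretch shared letter for letter was 35 bases. No source used here says how the authors counted reads that match several places. In wild-type library 3, which held 267 Chil4 counts, Chil3 had 3 counts (0.992 CPM, against 0.917 and 0.876 CPM in wild-type libraries 1 and 2). Whether reads of one gene were counted for the other was not tested.

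Chil3 and Chil4 had 11 and 403 counts in all in wild-type libraries, 18 and 28 in knockout and 7 and 0 in GFP libraries. Their promoters are printed because these near copies differed so much in count in the wild-type group. They are taken from RefSeq on GRCm38.p6, 250 bases before to 50 after the annotated start, and written in the direction of the gene: chr3:106167515-106167814 for Chil3 and chr3:106219430-106219729 for Chil4, both on the minus strand. Capitals mark matches on either strand to TTCNNNGAA (the STAT site), TTGCNNAA (a C/EBP site) and TATAAA.
Chil3: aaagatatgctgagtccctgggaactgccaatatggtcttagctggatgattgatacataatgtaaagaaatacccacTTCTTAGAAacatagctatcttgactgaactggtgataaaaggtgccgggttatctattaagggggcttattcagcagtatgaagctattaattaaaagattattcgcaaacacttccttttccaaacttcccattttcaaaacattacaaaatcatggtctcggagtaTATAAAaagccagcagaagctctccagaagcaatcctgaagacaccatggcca
Chil4: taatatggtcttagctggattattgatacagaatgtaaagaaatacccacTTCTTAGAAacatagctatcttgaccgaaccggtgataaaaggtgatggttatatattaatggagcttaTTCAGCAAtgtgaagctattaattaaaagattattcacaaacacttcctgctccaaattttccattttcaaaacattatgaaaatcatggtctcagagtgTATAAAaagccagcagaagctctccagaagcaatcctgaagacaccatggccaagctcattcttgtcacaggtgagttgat
The windows matched at 92.6% of 271 aligned bases. Both hold 1 TTCNNNGAA, found in 8.30% of 32851 mouse promoters of the same length, and 1 TATAAA, found in 13.6%. The Chil4 window also holds 1 TTGCNNAA, found in 10.8% of promoters, and the Chil3 window has none. The search covered 5 motifs. The STAT6 form with 1 more base in its spacer (in 6.95% of promoters) was in none of the 5 windows, and TGAGTCA (in 5.20%) was in that of Chit1 alone. The Chil1 window held none of the 5 motifs. The matches do not overlap each other. They are letters in a window and do not show that a factor binds there.

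Set side by side, the 3 genes that passed the filter had different patterns. Between wild-type and GFP ears all 3 had groups that did not overlap, as did 54.6% of the 13807 genes tested. Between knockout and GFP ears all 3 again did not overlap, beside 35.8% of all genes. Between knockout and wild-type ears, Chil1 and Chil4 did not overlap and Chit1 did, while 36.5% of all genes did not overlap. The genes were chosen from these same comparisons, so nothing is read from these shares. The authors' deposited tables give log2 fold changes of 5.24 for Chil1, 1.90 for Chit1 and 10.6 for Chil4 in wild-type over GFP, and of 3.91, 2.03 and 6.47 in knockout over GFP for the same genes. The values for Chil4 against GFP rest on a group at 0 and are no bound. The authors' deposited table for the genotypes runs the other way, wild type over knockout, and gives 1.27 for Chil1, 4.11 for Chil4 and -0.19 for Chit1.

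**Figure D2:**
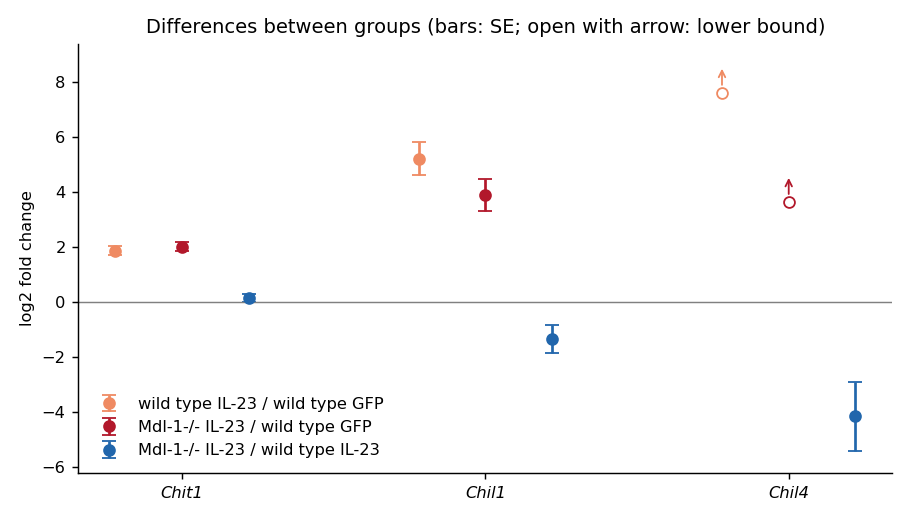
Log2 fold changes from the fit to all genes, with bars of 1 SE; open symbols with an arrow are lower bounds against a GFP group with no count. Against GFP, Chit1 has nearly the same value in both genotypes (2.03 in knockout and 1.88 in wild type), while Chil1 and Chil4 lie below 0 in knockout against wild type.

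The ratio of the neighbours Chil1 and Chit1 within a library does not depend on scaling. There were 5.60, 8.70 and 7.66 Chil1 counts per Chit1 count in knockout libraries, 13.9, 21.5 and 27.1 in wild-type libraries and 2.72, 2.67 and 0.594 in GFP libraries. No group overlapped another in this ratio. Together the 5 genes took 0.0778% to 0.105% of all counts in knockout, 0.157% to 0.200% in wild-type and 0.00505% to 0.0120% in GFP libraries. Chil1 made up 84.5% to 89.3%, 92.7% to 94.6% and 36.8% to 73.1% of these in the same order.

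**Figure D3:**
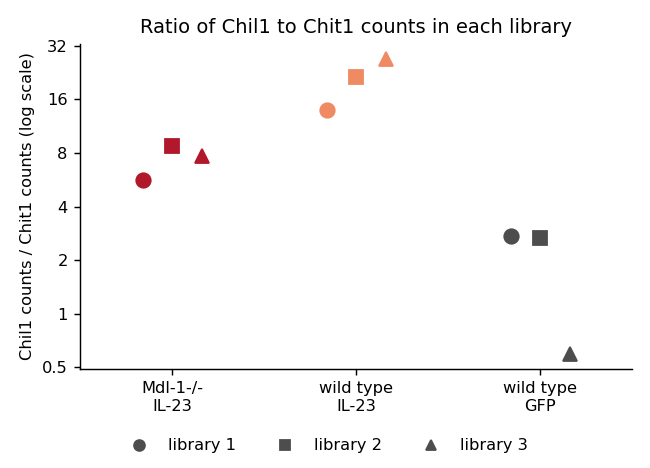
Chil1 counts divided by Chit1 counts in each library, on a log axis. The knockout libraries (5.60 to 8.70) lie between wild-type (13.9 to 27.1) and GFP (0.594 to 2.72).

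The genes whose log2 CPM followed each member most closely over the 9 libraries are given as a description. The points share their libraries, their depths and the difference between the IL-23 groups and the GFP group. Nearest to Chil1 were Gsdmc2 (r = 0.996), Ptges, which encodes a prostaglandin E synthase (0.996), the serine protease gene Prss27 (0.994), the receptor kinase gene Tyro3 (0.993) and Gsdmc (0.992). Gsdmc2 had 78.7, 137 and 156 CPM in knockout, 225, 353 and 479 CPM in wild-type and 5.40, 4.96 and 0.619 CPM in GFP libraries, so that GFP library 3 was again the lowest. Gsdmc and Gsdmc2 are gasdermin family genes with close copies, so their counts may be shared. Nearest to Chil4 were Ube2z (r = 0.991), the membrane protease gene Tmprss11a (0.990), Atp6ap2 (0.988), Cebpb, which encodes a transcription factor of inflammation (0.986), and Xpr1 (0.983). Tmprss11a had 3.13, 3.43 and 0.959 CPM in knockout, 17.9, 32.6 and 63.2 CPM in wild-type and 0.174, 0.184 and 0.155 CPM in GFP libraries. Its order of libraries within both IL-23 groups was that of Chil4. Nearest to Chit1 were the translation factor gene Eef1b2 (r = 0.978), Cnfn, which encodes cornifelin of the cornified envelope (0.977), Eif1ad (0.977), Jagn1 (0.975) and Jup, which encodes the junction protein plakoglobin (0.975). Cnfn had 71.1, 71.1 and 82.4 CPM in knockout, 82.1, 79.9 and 84.0 CPM in wild-type and 2.96, 7.53 and 3.56 CPM in GFP libraries.

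**Figure D4:**
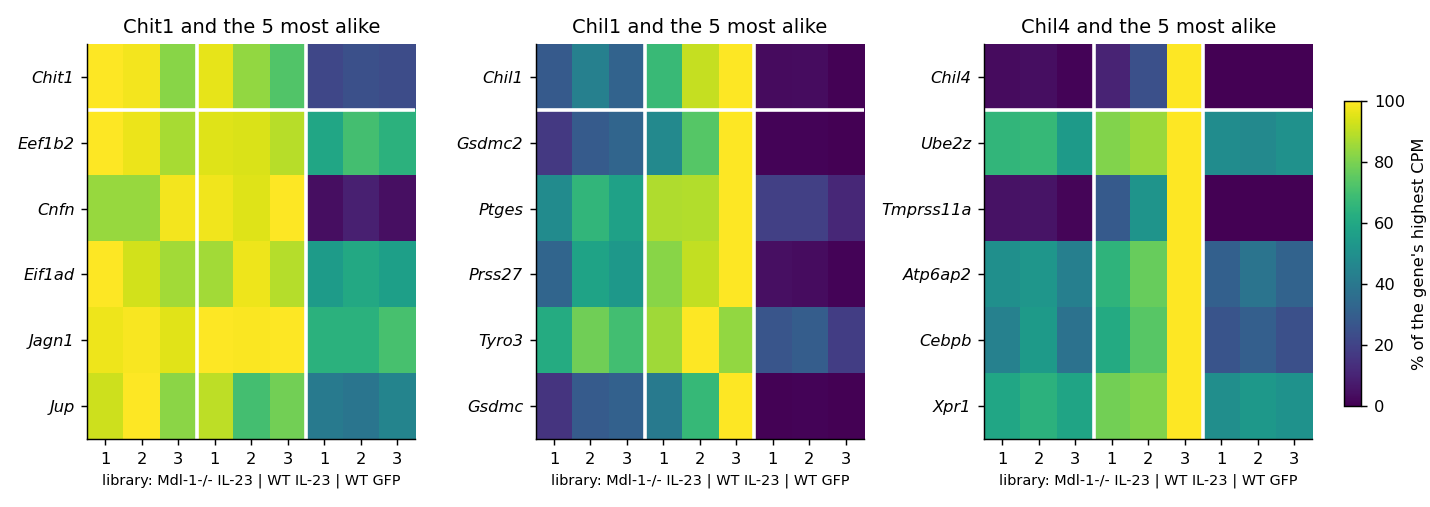
CPM in each library as a percentage of the gene's highest library, for Chit1, Chil1 and Chil4 and the 5 genes with the highest Pearson's r with each over 9 libraries. Libraries 1 to 3 of knockout, wild-type and GFP run from left to right; Chil4 and its nearest genes all peak in wild-type library 3.

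Relatives of the same enzyme family were low in every library. Of 6 listed, 5 were matched in the tables, and Ovgp1 (oviductin), Chid1 and Ctbs (lysosomal chitobiase) passed the filter. Chil5 had 1 count in all and Chil6 had 7. With wild-type set against GFP ears, 0 of 3 were called by edgeR's quasi-likelihood test at an adjusted p under 0.05, 0 had an unadjusted p under 0.05 and DESeq2 called 0, beside 22.9% of all tested genes called higher and 21.7% lower. In knockout against wild-type ears 0 of 3 were called by edgeR, 0 had an unadjusted p under 0.05 and DESeq2 called 0, beside 7.58% called higher and 10.1% lower. With knockout set against GFP ears, 1 of 3 was called lower, beside 10.2% called higher and 6.93% lower. That gene was Ovgp1, with 2, 4 and 7 counts against 17, 24 and 13 (edgeR adjusted p = 0.0473; log2 fold change -1.60, SE 0.53). Its call was lost without knockout library 1 (adjusted p = 0.152) or 2 (0.143), without GFP library 1 (0.0998), 2 (0.160) or 3 (0.0539), and with DESeq2 (0.0684).

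Of 7 listed genes for proteins reported to bind the Chil1 product or its human counterpart, 5 were tested, and Il13ra2, Sdc1 and Cd44 were higher in both IL-23 groups than in the GFP group. In wild-type against GFP ears 3 of 5 tested rose and none fell (median log2 fold change 1.13, beside -0.04 over all tested genes), and the count was 3 or 4 in every fit that left out 1 library. Of all tested genes 22.9% were called higher and 21.7% lower there. These shares were 7.58% and 10.1% for knockout against wild type, and 10.2% and 6.93% for knockout against GFP. Il13ra2, the decoy receptor for interleukin 13, had 11, 18.8 and 15.2 CPM in wild-type libraries, against 4.70, 2.02 and 2.01 CPM in GFP libraries (5.15-fold, edgeR adjusted p = 0.000107). Sdc1, which encodes a cell surface proteoglycan, rose 2.56-fold (adjusted p = 5.15e-06), and Cd44, the hyaluronan receptor, 2.19-fold (7.72e-05). In knockout against wild-type ears 0 of 5 were called by edgeR (median 0.05, beside 0.0016 over all), with log2 differences of -0.15 (SE 0.32) for Il13ra2, -0.37 (SE 0.14) for Sdc1 and 0.05 (SE 0.17) for Cd44, and 1 of 5 had an unadjusted p under 0.05; DESeq2 also called 0. In knockout against GFP ears 4 of 5 rose (median 0.98, beside -0.02 over all), with Il13ra2 4.65-fold (adjusted p = 0.000741) Cd44 2.27-fold (0.000223) and Sdc1 1.97-fold (0.000329) higher. The fourth, Lgals3, which encodes galectin-3, was 1.45-fold higher (0.0166), a call lost without knockout library 1 (0.0583) or GFP library 1 (0.0810) or 3 (0.0609). Ptgdr2, a receptor of the same list, had 0 counts in all libraries, and Ager was too low to be tested.

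Of 9 listed genes of chitin and glucan sensing 6 were tested, and Clec7a was called in all 3 comparisons in every fit that left out 1 library. Between wild-type and GFP ears 4 of 6 tested rose and 1 fell (0 without wild-type library 2 or GFP library 1), with a median log2 fold change of 1.68. Of all tested genes 22.9% were called higher and 21.7% lower there. Clec7a, which encodes the glucan receptor dectin-1, had 110, 122 and 138 CPM in wild-type libraries, against 6.79, 12.8 and 9.90 CPM in GFP libraries (12.5-fold, edgeR adjusted p = 2.66e-06). Tlr2 rose 6.24-fold (adjusted p = 0.00173), and Nod2, a sensor of bacterial cell walls, 3.96-fold (0.000131). Syk, the kinase downstream of dectin-1, rose 2.60-fold (0.00447). In knockout against wild-type ears 3 of 6 fell and 1 rose (median -0.75), beside 10.1% of all tested genes called lower and 7.58% higher. Apart from that of Clec7a, each of these calls was lost when some single library was left out. The rise, of Lysmd3, was lost without knockout library 3 (edgeR adjusted p = 0.0534) or wild-type library 2 (0.0830) or 3 (0.0560). Clec7a was at 22.6, 42.3 and 19.4 CPM in knockout libraries, 4.37-fold below wild type (edgeR adjusted p = 0.00107; log2 fold change -2.13, SE 0.27). The falls of Tlr2 (3.82-fold) and of Syk (2.23-fold) were each lost without knockout library 1 (adjusted p = 0.110 for Tlr2 and 0.104 for Syk), without knockout library 3 (0.0550 and 0.117), without wild-type library 2 (0.115 and 0.0724) and without wild-type library 3 (0.0779 and 0.0662). The fall of Syk was also lost without wild-type library 1 (0.0969), so that the count of falls was 1 to 3 over these fits. Between knockout and GFP ears 2 of 6 rose (median 0.54), Nod2 3.13-fold and Clec7a 2.86-fold (edgeR adjusted p = 0.00225 and 0.00443). Of all tested genes 10.2% were called higher and 6.93% lower there.

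Chil3 and Chil4 are textbook companions of alternative macrophage activation, and the other genes of that list did not move one way. With wild-type set against GFP ears, 5 of 12 tested rose and 3 fell (median 0.28), and in knockout against wild-type ears 2 rose and 2 fell (median -0.10). Of all tested genes 22.9% were called higher and 21.7% lower in the first comparison. These shares were 7.58% and 10.1% in the second, and 10.2% and 6.93% for knockout against GFP. Arg1, the arginase gene of that state, had 12.3, 12.6 and 8.87 CPM in knockout, 30.7, 43.6 and 112 CPM in wild-type and 9.75, 6.43 and 10.0 CPM in GFP libraries. It rose 6.97-fold in wild-type against GFP (edgeR adjusted p = 0.00193) and was 5.43-fold lower in knockout than in wild type (0.0126; 0.0553 without knockout library 1). Ccl24, an eosinophil attractant gene, rose 6.55-fold in wild-type against GFP ears (edgeR adjusted p = 0.00464), and Il4ra, the receptor chain for interleukins 4 and 13, 4.58-fold (2.86e-05). Socs1, a brake on cytokine signalling, rose 3.79-fold (0.0183), a call lost without wild-type library 1 (0.0514) or 3 (0.0673) or GFP library 3 (0.0726).

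Cd163 and Mgl2, of the same list, went the opposite way to Arg1 between the genotypes. Cd163, a scavenger receptor gene of resident macrophages, had 5.14, 3.43 and 4.55 CPM in knockout, 1.15, 1.31 and 1.98 CPM in wild-type and 3.83, 4.22 and 2.94 CPM in GFP libraries. It was 3.01-fold higher in knockout than in wild-type ears (edgeR adjusted p = 0.0165), a call lost without knockout library 1 (0.0648) or wild-type library 2 (0.0648). Mgl2, a lectin gene of macrophages and dendritic cells, was 2.42-fold higher in knockout (0.0248), a call lost without knockout library 1 (0.130) or 3 (0.0505) or wild-type library 1 (0.0787) or 2 (0.0719). Il4ra was 1.99-fold lower in knockout (log2 fold change -0.99, adjusted p = 0.0175), a call lost without knockout library 1 (0.0656) or 3 (0.0544) or wild-type library 2 (0.0558) or 3 (0.0652). Retnla, another marker of that state, was too low to be tested, with 10, 3 and 20 counts in knockout, 1, 8 and 3 in wild-type and 4, 4 and 3 in GFP libraries. Over fits that left out 1 library, the number that rose in wild-type ears was 3 to 5 (3 without wild-type library 3 or GFP library 3) and the number that fell 0 to 3 (0 without wild-type library 1 or 2). Between the genotypes it was 0 to 2 in each direction, with 0 higher without knockout library 1 or wild-type library 2 and 0 lower without knockout library 1. With knockout set against GFP ears, 3 rose and 1 fell (median 0.32). Il4ra rose 2.31-fold (edgeR adjusted p = 0.00731), Socs1 4.33-fold (0.0248) and Il13ra1, another receptor chain for interleukin 13, 1.55-fold (0.0209), while the cytokine gene Il33 was 1.88-fold lower (0.0225). Apart from that of Il4ra, these calls were each lost when knockout library 2 or 3 or GFP library 3 was left out. The number that rose was 1 without knockout library 3 or GFP library 3, and none fell without knockout library 2 or 3 or GFP library 2 or 3.

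Neutrophil markers had their highest sums in wild-type libraries. Sums in knockout libraries lay between those of wild-type and GFP libraries, but overlapped those of GFP once S100a8 and S100a9 were left out. The part of these markers in the values above was not tested. Of 20 neutrophil markers 10 passed the filter, and Elane and Prtn3 had 0 counts throughout. The list's summed level was 6784 to 26040 CPM in knockout, 35080 to 74440 CPM in wild-type and 334 to 467 CPM in GFP libraries. Most of the sum in the IL-23 groups came from S100a8 and S100a9, which keratinocytes also make. Without that pair, left out after the values were seen, the sums were 121 to 159, 243 to 298 and 73.3 to 134 CPM in the same order. In wild-type against GFP ears 9 of the 10 rose (median 2.54), with S100a8 200-fold, S100a9 121-fold, the chemokine receptor gene Cxcr2 13.2-fold and Retnlg 10.2-fold higher. Of all tested genes 22.9% were called higher in that comparison. The share called lower in knockout against wild type was 10.1%, and the share called higher in knockout against GFP was 10.2%. In knockout against wild-type ears 3 fell and 9 of the 10 had an unadjusted p under 0.05 (median -1.84). Clec4d was 5.12-fold, Retnlg 4.68-fold and Csf3r, the receptor gene of a neutrophil growth factor, 3.65-fold lower. The call of Clec4d was lost without any 1 library of these groups (edgeR adjusted p = 0.0527 to 0.0849). That of Retnlg was lost without knockout library 1 or any 1 wild-type library. That of Csf3r was lost without knockout library 1 or 3 or wild-type library 3. The number that fell ran from 0 (without wild-type library 3) to 6 (without knockout library 2) and was 1 without any other single library of these groups; DESeq2 called 6, and 8 fell with no count filter. In knockout against GFP ears S100a8 (56.6-fold), S100a9 (42.8-fold) and Cxcr2 rose (3 of 10, median 0.61).

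Of 20 monocyte and macrophage markers 18 passed the filter and none was at 0 in all libraries. They summed to 381 to 451 CPM in knockout, 324 to 419 CPM in wild-type and 169 to 253 CPM in GFP libraries, so the IL-23 groups overlapped, and their part in the values above was not tested. Between wild-type and GFP ears 4 of 18 rose and 3 fell (2 rose without wild-type library 3), beside 22.9% of all tested genes called higher and 21.7% lower. The shares of all tested genes were 7.58% and 10.1% for knockout against wild type, and 10.2% and 6.93% for knockout against GFP. Itgam was 3.49-fold higher, and Mertk 2.88-fold and F13a1 2.57-fold lower. Cd163 rose in knockout against wild-type ears (1 of 18; 0 without knockout library 1 or wild-type library 2, and 2 without knockout library 3 or wild-type library 3) and none fell. Between knockout and GFP ears 1 rose and 1 fell, and Mertk was 1.81-fold lower. The number that rose was 5 with no count filter; 6 rose without GFP library 2 and 2 without knockout library 1 or 3, and the fall was lost without any 1 of these libraries but knockout library 1. Of 8 eosinophil markers 2 passed the filter, the close copies Ear1 and Ear2, and the defining markers Epx and Prg2 had 0 counts in every library. The list summed to 6.63 to 13.2 CPM in knockout, 0.458 to 13.2 CPM in wild-type and 0.619 to 1.74 CPM in GFP libraries. Its median was 8.50 CPM in knockout, 8.98 CPM in wild-type and 1.28 CPM in GFP libraries. Ear1 rose 7.42-fold and Ear2 4.81-fold in wild-type against GFP ears, and neither call held without wild-type library 2 or 3 or without any 1 GFP library (edgeR adjusted p = 0.0537 to 0.157). Between knockout and wild type 0 of 2 were called by edgeR, 0 had an unadjusted p under 0.05 and DESeq2 called 0. Ear2 rose 7.30-fold in knockout against GFP ears, a call lost without knockout library 1 or 3 or GFP library 2 or 3.

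Among the keratinocyte markers, 5 of 10 were called higher and 1 lower in wild-type against GFP ears (3 lower without wild-type library 1). Of all tested genes 22.9% were called higher and 21.7% lower there. These shares were 7.58% and 10.1% for knockout against wild type, and 10.2% and 6.93% for knockout against GFP. Krt16 rose 142-fold, Krt6a 31.0-fold and Krt1 22.8-fold, and Krt15, a keratin of basal and follicle cells, was 11.5-fold lower. Between knockout and wild-type ears 1 was called higher and 3 lower. Krt10, a keratin of differentiating epidermis, was 2.95-fold higher in knockout (edgeR adjusted p = 0.000928), and Krt6a was 5.11-fold, Krt16 3.9-fold and Krt14 1.61-fold lower. The number lower was 0 without wild-type library 3 and 1 without knockout library 1 or 3 or wild-type library 2, and 2 were higher without wild-type library 1 and with DESeq2. Between knockout and GFP ears 4 were called higher and 1 lower, with Krt16 36.4-fold, Krt1 13.6-fold, Krt6a 6.07-fold and Krt10 4.92-fold higher. The call of Krt6a was lost without knockout library 1 or 2 or any 1 GFP library (edgeR adjusted p = 0.0566 to 0.1125). The lower call held without knockout library 1 and was lost without any other library of these groups. The part of these genes in the values of the chitinase family was not tested.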

How the data were processed

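Raw counts per Ensembl gene were deposited by the authors for each pair of groups, with the authors' own tables of log2 fold changes, mean log2 CPM, p-values and FDRs. Per the submitters' processing notes, STAR 2.7.0a, featureCounts and edgeR were used; the build is given as GRCh38.p6, a human name, while the identifiers are of mouse. No source used here states strand or multi-mapping settings.

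The 3 count tables overlap, every library being given in 2 of them (0 values differed between copies), and were joined into 54838 genes by 9 libraries. Libraries of 1 group differed by more than sampling noise (chi-square per gene of 4.22 or more). Symbols and positions came from GENCODE M21 by Ensembl identifier. Counts were fitted with edgeR 4.0.16 in R 4.3.3: filterByExpr defaults (minimum count 10, total 15; 13807 genes left), TMM scaling, 1 model of 3 group means with 6 residual degrees of freedom, robust quasi-likelihood F-test, and Benjamini-Hochberg adjustment over all tested genes, called under 0.05. SEs were derived from the F statistic. The procedure was tested on simulated counts. Log2 CPM for correlations used a prior count of 2. DESeq2 1.42.0, upper-quartile scaling, other count filters, the replicate number as a block and leaving out each library were alternatives.

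The 5 genes and all lists were chosen with earlier results of these data known. Genes named from the lists are up to 4 per list and comparison, those with the largest fold change among the called, together with all relatives of the family; values of Retnla, Ptgdr2, Ager, Elane, Prtn3, Epx and Prg2 are given as listed markers. A gene named by this rule is not reported here. Likeness was ranked by Pearson's r, 5 genes per tested member. Chia2, a listed relative, had no matching symbol and was not analysed here. Lists for lysosomal glycosidases, for lipid-laden and osteoclast-like macrophages and for skeletal muscle are given with the closing observations.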

Additional observations from a re-analysis of the deposited data

How the results depend on the processing

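Chil1, Chil4 and Chit1 kept the sign of every log2 fold change under upper-quartile scaling, DESeq2, both other count filters, the replicate block and each left-out library; the bounds of Chil4 were not run with other filters or the block. The values ran from 4.79 to 5.60 for Chil1 in wild-type against GFP, from 3.49 to 4.30 in knockout against GFP and from -1.50 to -1.19 in knockout against wild type. For Chit1 they were 1.73 to 1.99, 1.93 to 2.13 and 0.06 to 0.26. Leaving out single libraries moved the Chil4 difference between genotypes from -4.64 to -2.80, and its lower bound from 3.004 to 4.06 in knockout and from 6.49 to 8.14 in wild-type, each against GFP (log2). With the replicate number as a block Chil1 was at 5.34, -1.36 and 3.98 and Chil4 at -3.73, and the calls over all genes were 6257, 2800 and 2682, in place of 6169, 2439 and 2359 for wild-type against GFP, knockout against wild type and knockout against GFP. The labels do not say that equal numbers mark pairs. Deviations of same-numbered libraries had r of -0.09 to 0.23, which cannot decide it with 3 libraries per group and no differently numbered pairs for comparison. Calls ran from 1128 to 2442 for the genotypes and from 1340 to 2535 for knockout against GFP over fits without 1 library, the lowest being without wild-type library 2 and without GFP library 3; the cause was not tested. Upper-quartile scaling moved the share of calls that were higher to 38.9% (from 51.3%), 53.2% (from 42.9%) and 43.7% (from 59.4%) in these comparisons, and shifted the median log2 fold change of all genes to -0.20 (from -0.04) in the first of them. Of 86 named gene comparisons outside the 5, 54 stayed on their side of the threshold throughout, 30 lost a call somewhere and 2, neither of them called, changed sign. These were Chid1 in wild-type against GFP (-0.27 to 0.12 over left-out libraries; 0.03, 0.08 and 0.12 without wild-type library 1 or 2 or GFP library 1) and Ctbs in knockout against GFP (-0.26 to 0.10; 0.10 and 0.02 without knockout library 1 or GFP library 1). Counts of the lists stayed within 1.5 times in 593 of 726 refits, with counts of 0 that stayed at 0 included among the 593. Depth limits Chil3 and Chia1, whose counts were 7 or fewer in each library.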

Other observations

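Lysosomal enzymes that trim sugar chains work beside chitobiase in glycan breakdown. Of 12 such genes 9 were tested, and in wild-type against GFP ears 1 fell and none rose: Aga, which encodes aspartylglucosaminidase, was 1.58-fold lower (edgeR adjusted p = 0.0199), a call lost without wild-type library 1 (0.0984) or 2 (0.0765) or GFP library 1 (0.0762) or 3 (0.0563). In each of the other comparisons 0 of 9 were called by edgeR, 0 had an unadjusted p under 0.05 and DESeq2 called 0. Of all tested genes 22.9% were called higher and 21.7% lower in wild-type against GFP ears. These shares were 7.58% and 10.1% for knockout against wild type, and 10.2% and 6.93% for knockout against GFP. The list summed to 99.5 to 123 CPM in knockout, 95.8 to 148 CPM in wild-type and 117 to 126 CPM in GFP libraries.

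Chit1 is known from lipid-laden macrophages, and 9 of 10 genes of such cells and of osteoclasts were tested. In wild-type against GFP ears 3 rose and 3 fell (1 fell without GFP library 3), beside 22.9% of all tested genes called higher and 21.7% lower. For this list and the next, these shares were 7.58% and 10.1% for knockout against wild type, and 10.2% and 6.93% for knockout against GFP. Mmp12, the macrophage elastase gene, rose 4.57-fold and Fabp5, a fatty acid carrier gene that keratinocytes share, 3.30-fold, while Gpnmb was 3.54-fold lower (edgeR adjusted p = 0.000798, 4.48e-05 and 0.000223). Lpl was 2.12-fold lower (0.0164; 0.0564 without GFP library 3). In knockout against wild-type ears 1 rose (0 without knockout library 1 or wild-type library 2, 2 without knockout library 2 or wild-type library 1) and 2 fell (1 without knockout library 1 or 3 or wild-type library 2), with Fabp5 2.05-fold lower (edgeR adjusted p = 0.00638), Acp5 1.65-fold lower (0.0290) and Cd9 1.61-fold higher (0.0137). In knockout against GFP ears Fabp5 was 1.60-fold higher and Lpl 2.97-fold and Gpnmb 1.87-fold lower, and without any 1 library but knockout library 1 there was 0 higher and 1 lower. Of 8 skeletal muscle markers 2 fell in wild-type against GFP ears, Atp2a1 6.24-fold and Myh2 6.15-fold; 4 had an unadjusted p under 0.05, and 4 fell under upper-quartile scaling, with no count filter, with a minimum count of 30 and with DESeq2. In knockout against wild-type ears 1, Myh2, was 5.09-fold higher (edgeR adjusted p = 0.00107; 2 were higher without knockout library 1 or wild-type library 3 and with DESeq2). In knockout against GFP ears 0 of 8 were called by edgeR, 4 had an unadjusted p under 0.05 and DESeq2 called 2; 7 fell without knockout library 3. They summed to 201 to 898 CPM in knockout, 423 to 533 CPM in wild-type and 730 to 1361 CPM in GFP libraries.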
